A study of Mus musculus with 21 samples.

Results

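Interferon-stimulated genes are the genes that cells switch on when type I or type II interferon binds its receptor. Signals from the receptor's kinases reach transcription factors that bind a DNA element called the interferon-stimulated response element (ISRE), STAT2 and IRF9 among them. Another element of such promoters is the gamma-activated sequence (GAS). The products sense viral nucleic acid, block virus entry, translation or replication, conjugate the ubiquitin-like protein ISG15, or attack the vacuoles of intracellular pathogens. Haematopoietic stem cells are known to leave dormancy under interferon, and stem cells of several tissues are known to express a share of these genes without infection. The 54 genes examined here were taken from a list of such genes. Rows carrying their symbols were found for 51 of the 54 among the 11628 genes of the deposited table, and all 51 passed the filter on low values, which kept 11496 genes. Ifit3, Cxcl10 and Bst1, which encodes CD157, were not analysed here.

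The libraries came from bone marrow of wild-type mice and of mice homozygous for a mutation of Etv6, written P214L in the series' description. Etv6 encodes an ETS-domain protein that represses transcription. The labels give the mutant genotype as ETV6 mt/mt, and the wild-type mice are the controls. In each population 3 libraries were wild type and 4 were mutant, from mice labelled 10 or 12 weeks old. In each group the library numbered 2 came from a male of 12 weeks and the others from females. The description counts 3 wild-type and 4 mutant mice, so libraries of different populations would share animals, although replicate 4 is labelled 12 weeks old in HSC and MPP4 and 10 weeks in CLP. Haematopoietic stem cells (HSC) were gated, as labelled, on absence of lineage markers, presence of cKit and Sca1, absence of FLK2, presence of CD150 and absence of CD38. Multipotent progenitors 4 (MPP4) shared the first 3 criteria and carried FLK2. The gate for common lymphoid progenitors (CLP) took lineage-negative cells positive for IL7 (as the label writes it) and Flk2, with low cKit and Sca1. Values are RPKM, read density per length of transcript, scaled to each library's mapped reads, so levels of different genes can be set side by side.

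Marker transcripts set HSC and CLP apart. Slamf1, which encodes CD150, averaged 22.6 RPKM in wild-type HSC and 0.720 in wild-type CLP, whereas Il7r averaged 1.06 and 91.3 RPKM. In wild-type MPP4 the 2 genes averaged 0.849 and 11.6 RPKM. Summed levels of 8 MPP4 markers were 518 to 572 RPKM in wild-type HSC, 2188 to 2464 in MPP4 and 2855 to 3023 in CLP. They thus set MPP4 apart from HSC but were not highest in MPP4. RPKM summed to between 337818 and 376135 per library, and the sequencing depth behind the values is unknown. Summed levels of 9 neutrophil markers lay between 94.6 and 1113 RPKM in 17 libraries and were higher in wild-type HSC replicate 2 (1536), mutant MPP4 replicate 2 (2446), mutant CLP replicate 2 (1769) and mutant CLP replicate 4 (2271). In sorted pools such as these, fewer cells of a type and less RNA per cell cannot be told apart.

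Promoters of these genes often carried the ISRE. The table of RefSeq promoters (GRCm38.p6), running from 250 bases before to 50 after each gene's start, held 40 of the 51 genes. The ISRE core, searched on both strands as 2 copies of GAAA with 2 free bases between them, lay in 19 of the 40 windows (47.5%), against 3.99% of all 27025 genes with a window. GAS, searched as TTCNNNGAA, lay in 12 (30% against 9.55%). A composite of an ETS site and an IRF site, GGAA and GAAA with 2 free bases between them, lay in 9 (22.5% against 3.16%). It differs from the ISRE core by 1 letter, so the same bases cannot match both on 1 strand, although shifted matches can overlap. The ETS consensus CCGGAAGT lay in 2 (5.0% against 4.31%). Among the 8884 genes of the fit with a window, the 4 shares were 3.79%, 8.37%, 2.86% and 9.57% in the same order. A match is a description of the letters and not of a bound site. The stretches below are the ISRE cores of members whose levels carry the results: the abundant Ifitm2 and Ifitm3, members that were lower in later progenitors, Gbp3 and Lgals9, which were not, and Isg15, the namesake of the ISG15 cycle. They are printed on the gene's strand, with the matched letters in capitals; for genes with several matches, the first run of overlapping ones is shown.
Ifitm2, chr7:140955988-140956017, minus strand: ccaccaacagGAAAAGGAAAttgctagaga
Ifitm3, chr7:141010723-141010752, minus strand: caaaattcagGAAAAGGAAActtctgagaa
Gbp2, chr3:142620594-142620623, plus strand: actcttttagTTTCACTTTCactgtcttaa
Igtp, chr11:58199512-58199541, plus strand: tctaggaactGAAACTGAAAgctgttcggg
Ifit1, chr19:34640775-34640804, plus strand: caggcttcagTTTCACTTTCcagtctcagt
Ddx58, chr4:40239804-40239833, minus strand: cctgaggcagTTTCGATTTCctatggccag
Oas1a, chr5:120907526-120907555, minus strand: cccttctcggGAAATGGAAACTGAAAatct
Oas3, chr5:120777715-120777744, minus strand: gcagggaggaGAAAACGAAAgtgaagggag
Isg15, chr4:156200871-156200900, minus strand: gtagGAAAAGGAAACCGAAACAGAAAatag
Gbp3, chr3:142559989-142560018, plus strand: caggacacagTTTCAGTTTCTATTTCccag
Lgals9, chr11:78984960-78984989, minus strand: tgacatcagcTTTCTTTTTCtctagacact

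The cores of Oas1a and Gbp3 overlap a further copy of the same letters and that of Isg15 a further 2, so their capitals run on. Counted from the start of the transcript in the promoter table, the 11 cores begin between position -104 (Ifit1) and position 3 (Ifitm3 and Ddx58). For Ifitm2, Oas1a, Oas3 and Gbp3 that start lies inside the annotated gene, which reaches further upstream. The annotated Gbp3 gene begins at position 142560016, within the stretch printed below. The whole 250 bases before the start are given for Gbp2 and Gbp3, neighbours on chromosome 3 whose levels differ between populations in opposite directions, again with the ISRE core in capitals.
Gbp2, chr3:142620413-142620662, plus strand: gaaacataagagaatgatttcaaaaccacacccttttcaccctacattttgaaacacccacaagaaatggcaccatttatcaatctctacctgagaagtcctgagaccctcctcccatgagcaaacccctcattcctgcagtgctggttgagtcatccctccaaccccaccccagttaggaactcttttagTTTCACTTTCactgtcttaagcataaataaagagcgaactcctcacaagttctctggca
Gbp3, chr3:142559794-142560043, plus strand: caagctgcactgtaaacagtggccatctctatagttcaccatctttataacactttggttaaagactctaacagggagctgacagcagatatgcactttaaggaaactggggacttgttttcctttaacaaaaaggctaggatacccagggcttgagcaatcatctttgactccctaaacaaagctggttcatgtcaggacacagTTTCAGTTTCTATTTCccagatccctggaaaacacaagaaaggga

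The genes lie on 17 chromosomes, in several clusters of related copies. Ifitm1, Ifitm2 and Ifitm3 occupy chr7:140954837-141010744 together, with Irf7 on the same chromosome. Gbp2, Gbp3 and Gbp7 lie close together on chromosome 3, the 5 members of the OAS family on chromosome 5, and Dtx3l, Parp9 and Parp14 with Mx1 and Mx2 on chromosome 16. Reads shared between close copies (Ifitm1 to Ifitm3, Gbp2 and Gbp3, the Oas1 genes, Mx1 and Mx2) could have been split in ways the sources used here do not state, so single values of these genes are uncertain. Chromosome 11 held the most members, 10.

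All of the 51 were detected in every library. The median of their mean levels was 19.9 RPKM, against 13.5 over all genes kept, and 50 of 51 never fell under 1 RPKM in any library. The exception was Mx1, a dynamin-like GTPase, whose lowest library stood at 0.951 RPKM. Ifitm2 (mean over 21 libraries, 416 RPKM) and Ifitm3 (407 RPKM) were the most abundant, followed by Lgals9 (285 RPKM), Ifitm1 (240.4 RPKM) and Lgals3bp (163 RPKM). IFITM proteins block the fusion of viruses with the cell membrane, Lgals9 encodes a galectin and Lgals3bp a secreted galectin-binding glycoprotein. Lgals3bp stood at 213, 196 and 235 RPKM in wild-type HSC, 169, 132 and 166 RPKM in MPP4 and 129, 114 and 118 RPKM in CLP. The lowest were Mx1 (2.54 RPKM), Mx2 (2.97 RPKM), Oas2 (4.43 RPKM) and Zbp1 (5.38 RPKM).

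**Figure D1:**
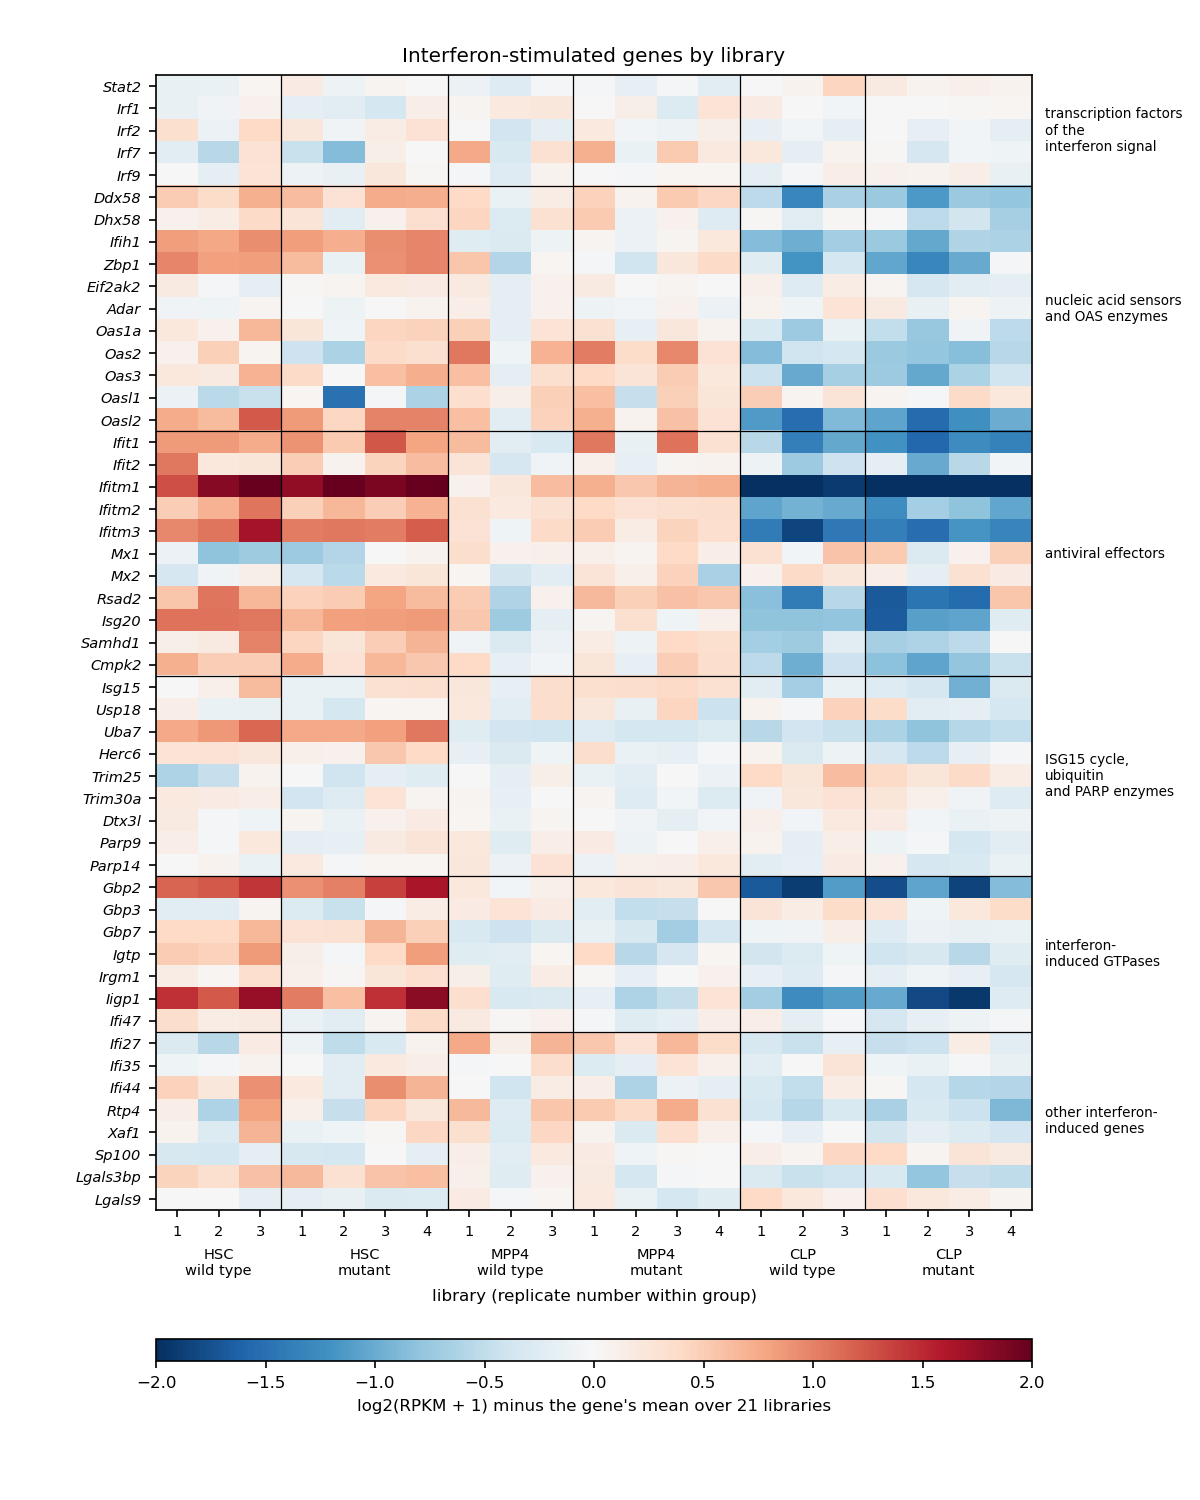
Levels of the 51 interferon-stimulated genes (rows, ordered by role) in the 21 libraries (columns, by group and replicate number), as log2(RPKM + 1) minus each gene's mean over all libraries; shades stop at 2 in either direction. Blue marks levels under the gene's mean and is densest in the CLP columns; 26 genes were lower in wild-type CLP than in HSC.

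The comparison the study was built on was between genotypes, and no interferon-stimulated gene passed the test in any population. In limma, with Benjamini-Hochberg adjustment over all 11496 genes at a threshold of 0.05, 0 of 51 were called in HSC (0.0522% of all genes were), 0 of 51 in MPP4 (0.217%) and 0 of 51 in CLP (0%). In limma at an unadjusted p under 0.05 the counts were 0, 2 and 0, against 4.45%, 8.14% and 4.41% of all genes. No other tool was run as a test, since the values are not counts. A fit without the male libraries also called 0 members in each population. The 3 tests of whether the genotype difference itself differed between populations called 0 members too, against 0%, 0% and 0.0087% of all genes.

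The intervals around these differences were narrow for most members. On the log2(RPKM + 1) scale, which understates changes of low genes, the 95% interval of mutant minus wild type lay within 1 in either direction, which is 2-fold on that scale, for all 51 members in HSC, for 49 in MPP4 and for all 51 in CLP. The exceptions were Ifit1 and Rsad2 in MPP4. The median reach of an interval was 0.372 to either side. Differences ran from -0.29 (Oas2) to 0.24 (Mx1) in HSC, from -0.50 (Gbp3) to 0.56 (Rsad2) in MPP4 and from -0.36 (Ifit1) to 0.25 (Ifitm1) in CLP.

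The medians were small and did not share a sign. The median difference over the 51 was -0.05 in HSC, 0.02 in MPP4 and -0.12 in CLP, against 0.01, 0.02 and 0.00 over all genes. Members lying lower in the mutant numbered 32, 23 and 40 of 51, against 46.3%, 44.2% and 48.7% of all genes. The member mean, averaged per library, was 4.84 ± 0.140 in wild-type and 4.79 ± 0.197 in mutant HSC (SD, n = 3 and 4). It was 4.57 ± 0.219 and 4.61 ± 0.126 in MPP4, and 4.16 ± 0.157 and 4.07 ± 0.099 in CLP. The libraries of both genotypes overlapped in each population.

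**Figure D2:**
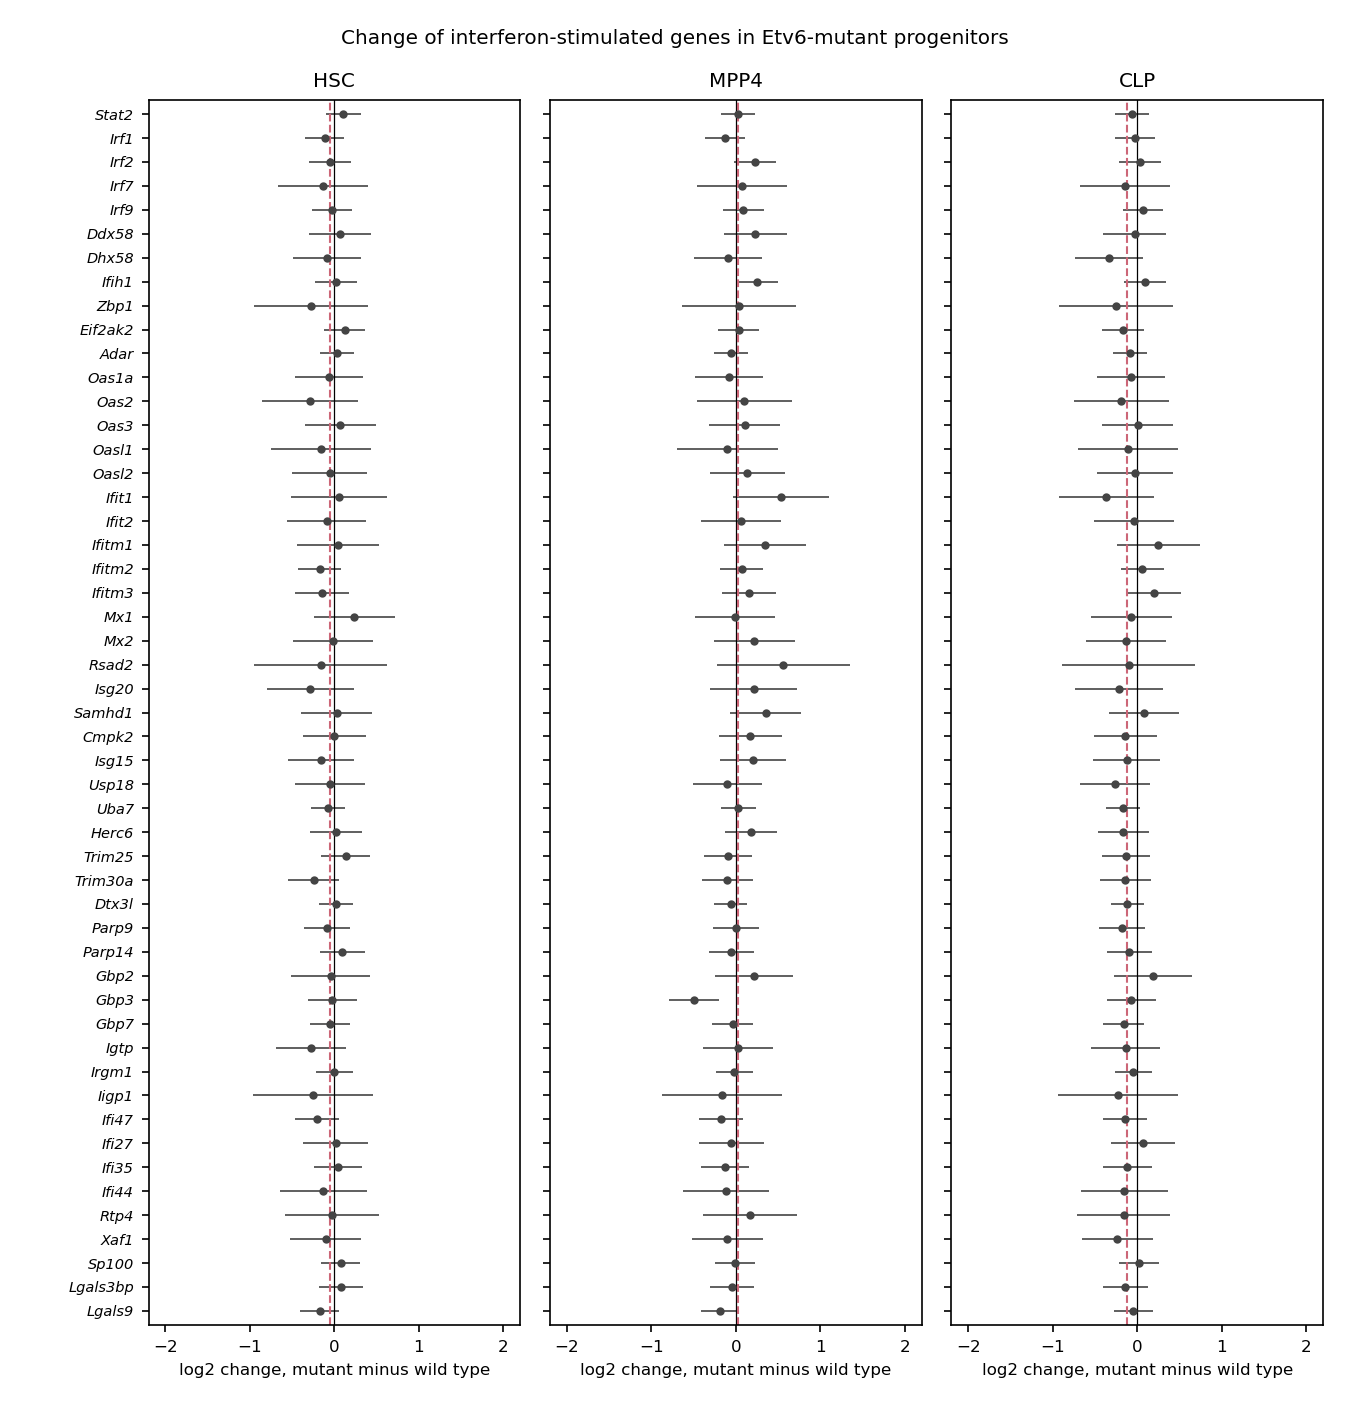
Difference between mutant and wild type (points, log2(RPKM + 1) scale) of each of the 51 genes in HSC, MPP4 and CLP, with 95% intervals (lines); the dashed line is the members' median. All points lie between -0.50 and 0.57, and the intervals of 2 genes, Gbp3 and Ifih1 in MPP4, leave out 0.

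Among the transcription factors, Stat2 and Irf9 had overlapping levels in the genotypes. Stat2 stood at 19.4, 19.8 and 22.4 RPKM in wild-type and 24.4, 20.1, 22.6 and 21.8 RPKM in mutant HSC. Irf9 stood at 25.2, 22.03 and 30.8 RPKM in wild-type and 23.6, 22.7, 29.8 and 25.6 RPKM in mutant HSC. Irf7, which drives interferon production and its amplification, stood at 51.4, 24.3 and 37.5 RPKM in wild-type MPP4 and 49.9, 27.4, 43.8 and 34.6 RPKM in mutant MPP4, also overlapping. Irf2, mainly a repressor of interferon targets, was the member of this group with the smallest p in MPP4, at 35.6, 27.05 and 31.2 RPKM in wild type against 40.98, 34.02, 32.9 and 38.6 in mutant (log2 difference 0.23, SE 0.1197, adjusted p = 0.678).

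Of the 11 sensors and OAS enzymes, Ifih1, an RNA helicase that senses long double-stranded RNA, came closest to the threshold. It stood at 3.97, 3.796 and 4.48 RPKM in wild-type MPP4 and at 5.06, 4.38, 5.07 and 5.78 RPKM in mutant MPP4, where the lowest mutant library lay under the highest wild-type one (log2 difference 0.25, SE 0.119, limma adjusted p = 0.602). In HSC its values were 9.51, 9.05 and 10.1 and 9.47, 8.66, 10.2 and 10.5 RPKM, which overlap. Dhx58, a regulator of the RNA helicase sensors, had the smallest p in CLP, with 21.5, 17.8 and 21.3 RPKM in wild type and 20.8, 14.3, 16.04 and 12.9 RPKM in mutant (-0.33, SE 0.192, adjusted p = 0.9998). Eif2ak2, the kinase PKR, which stops translation on double-stranded RNA, stood at 20.9, 16.2 and 21.6 and 20.1, 15.2, 16.5 and 17.1 RPKM in the same groups. For both genes the ranges of the genotypes overlapped.

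No antiviral effector was called in mutant MPP4. Of 11 measured, 10 had a positive difference there, with a median of 0.21, while 7 of 11 were negative in HSC and in CLP. Ifit1, which binds viral RNA lacking host cap methylation, stood at 9.54, 4.92 and 4.55 RPKM in wild-type MPP4 and at 13.2, 5.19, 13.5 and 7.47 RPKM in mutant MPP4. The 2 mutant libraries above 13 RPKM exceeded every wild-type library, and the other mutant libraries lay among them (log2 difference 0.54, SE 0.271, adjusted p = 0.648). Samhd1, which depletes nucleotides, stood at 8.15, 6.83 and 7.86 against 9.66, 7.93, 11.7 and 11.1 RPKM there (0.35, SE 0.2001, adjusted p = 0.705). Marker sums differed between these same groups: 10 stem cell markers summed to 239 to 274 RPKM in wild-type MPP4 and 329.9 to 350.1 in mutant MPP4, and 8 MPP4 markers to 2188 to 2464 and 1769 to 1984 RPKM. The part of that shift in the difference was not tested. In HSC the wild-type values of Ifitm2, 525, 602 and 787 RPKM, enclosed 2 of the 4 mutant values, 516, 591, 522 and 606 RPKM (-0.17, SE 0.123, adjusted p = 0.9996). Isg20, an exonuclease that degrades viral RNA, was the only member whose HSC libraries did not overlap. It stood at 23.6, 23.7 and 23.003 RPKM in wild type against 17.4, 19.5, 19.8 and 19.9 in mutant, a log2 difference of -0.28 (SE 0.247, adjusted p = 0.9996). That SE pools the spread of all 6 groups. The SD of Isg20 was 0.38 and 1.19 RPKM in wild-type and mutant HSC, against 5.02 in wild-type MPP4 and 2.58 in mutant CLP. A fit of the HSC libraries alone called 0 genes. All genes with mutant libraries under every wild-type library made up 1.90% in HSC, 3.41% in MPP4 and 2.18% in CLP, so counts of 1, 1 and 2 members (1.96%, 1.96% and 3.92%) are near that background.

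The 9 genes of ISG15 conjugation, ubiquitin ligation and ADP-ribosylation held no call. All 9 had a negative difference in mutant CLP, with a median of -0.14 and no member past the threshold. Uba7, the enzyme that activates ISG15, stood at 30.02, 34.1 and 32.7 RPKM in wild-type CLP and 28.5, 25.2, 29.8 and 31.4 RPKM in mutant CLP. Only 1 mutant library lay inside the wild-type range (log2 difference -0.17, SE 0.0965, adjusted p = 0.9998). Parp9, which forms a complex with the ubiquitin ligase Dtx3l, stood at 19.97, 16.5 and 20.9 and 17.6, 18.5, 14.6 and 16.1 RPKM. Trim30a, a negative regulator of Toll-like receptor signals, had the smallest p in HSC, at 16.4, 15.9 and 15.7 RPKM in wild type and 10.7, 11.7, 17.3 and 14.8 RPKM in mutant (-0.24, SE 0.144, adjusted p = 0.9996). Of its mutant libraries 3 lay under and 1 above the wild-type range.

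Gbp3, a guanylate-binding GTPase, was the member with the smallest p of all genotype comparisons. It stood at 24.7, 26.7 and 24.8 RPKM in wild-type MPP4 and 18.6, 15.4, 15.7 and 21.9 RPKM in mutant MPP4. Every mutant library was below every wild-type library, the log2 difference was -0.50 (SE 0.1395, 95% interval -0.79 to -0.20), and the unadjusted p of 0.00206 became 0.208 after adjustment. In HSC (18.8, 18.8 and 22.8 against 18.03, 15.8, 21.6 and 24.3 RPKM) and CLP (26.4, 24.4 and 28.5 against 26.6, 20.5, 25.5 and 28.6 RPKM) its libraries overlapped. The other GTPases named by the same rule were Ifi47 in HSC (90.03, 77.5 and 80.04 against 63.6, 59.6, 73.2 and 92.2 RPKM), Igtp in HSC (33.5, 32.3 and 42.8 against 25.2, 22.9, 30.9 and 42.2 RPKM) and Gbp7 in CLP (24.8, 25.2 and 29.1 against 21.8, 24.3, 23.7 and 23.9 RPKM). Only the last was without overlap. Their differences were -0.21, -0.28 and -0.16, and none passed the test. In the mixed group of other members, Lgals9 stood at 283, 284 and 247 RPKM in wild-type and 245, 254, 229 and 232 RPKM in mutant HSC (-0.17, SE 0.108, adjusted p = 0.9996), and Xaf1, which promotes cell death, had no overlap in CLP (6.29, 5.57 and 6.31 against 4.73, 5.51, 5.12 and 4.64 RPKM).

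Of 104 further interferon genes with a row, in lists of receptors and kinases (10), interferon production (15), negative regulators (11) and other interferon-induced genes (68), 0 were called in HSC, 0 in CLP and 2 in MPP4, against 0.0522%, 0% and 0.217% of all genes. Both belonged to interferon production and fell in mutant MPP4. Irf8, a transcription factor of dendritic and B cell development, stood at 50.1, 45.9 and 50.3 RPKM in wild type and 25.5, 22.6, 31.7 and 32.8 in mutant (log2 change -0.79, SE 0.151, adjusted p = 0.0364). Unc93b1, which carries Toll-like receptors to endosomes, stood at 104, 93.999 and 111 and 77.9, 65.8, 71.8 and 76.5 RPKM (-0.49, SE 0.0974, adjusted p = 0.0413). Neither gene's libraries overlapped. Both calls were lost in some fits, while the differences stayed close in size. When each MPP4 library was left out in turn, Irf8 passed in 2 of 7 fits (log2 difference from -0.86 to -0.69, adjusted p from 0.0296 to 0.276). Unc93b1 passed in 0 of 7 (-0.55 to -0.44, adjusted p from 0.0550 to 0.430). With a pseudocount of 0.1 neither passed (-0.81 and -0.49, adjusted p = 0.150 and 0.119). Irf8 also marks lymphoid and dendritic progenitors. The summed MPP4 and stem cell markers given above moved between the same groups, and their part in the 2 differences was not tested.

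More members passed the test between wild-type populations than between genotypes. Counts and p-values of these steps are from the fit of group means, which ignores the replicate numbers, unless a block is named. Between HSC and MPP4, 17 members were lower and 3 higher in MPP4, 39.2% of 51 against 39.3% of all genes, a share at the background. Lower calls made up 33.3% of members and 23.3% of all genes, and higher calls 5.88% and 16.1%. Between MPP4 and CLP, 12 were lower and 1 higher in CLP, 25.5% against 13.1% of all genes called. Lower calls made up 23.5% of members and 8.38% of all genes, and higher calls 1.96% and 4.77%. From HSC to CLP, 26 were lower and 5 higher, 60.8% against 51.1%, with 51% lower against 31.7% and 9.8% higher against 19.4%. The median log2 differences of the members were -0.13, -0.21 and -0.36, against -0.06, -0.05 and -0.10 over all genes.

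These shares depend on how libraries are scaled and on single libraries. Quantile normalization and median-ratio scaling moved the all-gene median from HSC to CLP from -0.10 to 0.02 and 0.00, a shift of over 0.1. They changed the all-gene split from 2227 higher and 3648 lower to 2919 and 2776 or to 2856 and 3003, and left 24 and 22 members lower and 7 higher. From HSC to MPP4 they changed the all-gene split from 1849 higher and 2673 lower to 2217 and 2169 or to 2179 and 2363. Members lower at that step were then 25.5% or 23.5%, against 18.9% or 20.6% of all genes, and members higher 3 or 4. For MPP4 to CLP median-ratio scaling changed the split from 548 higher and 963 lower to 682 and 790, with 12 members lower and 3 higher. From HSC to MPP4, lower members numbered 10 without wild-type HSC replicate 3 or without wild-type MPP4 replicate 2 (19.6%, against 19.2% and 19.7% of all genes). The higher ones numbered 1 without wild-type HSC replicate 2 or wild-type MPP4 replicate 1 (1.96%, against 15.1% and 14.1%). From MPP4 to CLP the higher ones numbered 0 without wild-type MPP4 replicate 1, 2 or 3 or CLP replicate 3 (3.58%, 3.51%, 4.27% and 3.79% of all genes). Higher members from HSC to CLP numbered 3 without wild-type HSC replicate 1 or 2 (5.88%, against 18.7% and 18.5%). Without all male libraries the counts lower were 12, 13 and 24 (23.5%, 25.5% and 47.1%, against 17.3%, 4.33% and 25.1% of all genes). The counts higher were then 3, 0 and 4 (5.88%, 0% and 7.84%, against 12.1%, 2.43% and 16.5%). Same-numbered wild-type libraries, which also share sex and age, deviated together between MPP4 and CLP and between HSC and CLP. A fit with the replicate number as a fixed block called more members at both steps. Wild-type and mutant libraries of the same number share that block, although numbers did not pair across genotypes. From MPP4 to CLP this fit called 16 lower and 2 higher (10.2% and 5.73% of all genes). It added Iigp1, Lgals3bp, Oas1a and Rtp4 to the lower and Stat2 to the higher ones. From HSC to CLP it called 28 lower and 7 higher (33.2% and 20.6% of all genes), adding Ifi47 and Herc6, and Stat2 and Oasl1. A random effect for the mouse, kept within genotype, gave 16 and 2 from MPP4 to CLP (11.2% and 6.31% of all genes). From HSC to CLP it gave 27 and 7 (34.6% and 21.4%), without Ifi47. Calls that held without any 1 library numbered 10 of 20, 9 of 13 and 23 of 31. The same count over all genes was not made. Calls over all genes also fell without 1 library. They went from 4522 to between 3742 and 4302 for HSC to MPP4, and from 1511 to between 1039 and 1307 for MPP4 to CLP. For HSC to CLP they went from 5875 to between 5298 and 5579.

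By the order of wild-type means alone, with no test, 27 members descended from HSC through MPP4 to CLP (52.9%, against 37.1% of all genes), 7 ascended (13.7% against 22.0%), 9 were highest in MPP4 and 8 lowest there. The descending class held 7 of 11 sensors and OAS enzymes, 9 of 11 antiviral effectors and 0 of 5 transcription factors. Of the 26 members lower in CLP than in HSC, 23 had a promoter window and 14 of those held an ISRE core, against 5 of the 17 other members with a window, given here as counts.

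Of all members, Ifitm1 had the largest change at each step. It stood at 319, 459 and 783 RPKM in wild-type HSC, 137, 152 and 200.05 RPKM in MPP4 and 15.9, 17.03 and 33.5 RPKM in CLP. No library of one population reached the range of another, and the log2 change from HSC to CLP was -4.47 (SE 0.249, adjusted p = 8.95e-12), a ratio of group means of 23.5. Mutant libraries stood in the same order, at 447, 549, 479 and 537 RPKM in HSC, 212, 188, 208 and 212 in MPP4 and 25.7, 25.7, 23.01 and 26.2 in CLP, a ratio of 20.0. Ifitm3 stood at 616, 665 and 1009.96 RPKM, 389.6, 300.1 and 416 RPKM and 120.04, 88.2 and 118 RPKM in the 3 wild-type populations. The changes of Ifitm3 were -1.03 from HSC to MPP4 and -1.75 from MPP4 to CLP (adjusted p = 4.09e-05 and 2.32e-07), again without overlap. Ifitm2, by contrast, kept most of its level in MPP4: 525, 602 and 787 RPKM in HSC, 461, 428 and 461 in MPP4 and 178, 192 and 186 in CLP. Its change from HSC to MPP4 was -0.48 (adjusted p = 0.00626), and without wild-type HSC replicate 3 it was -0.32 (adjusted p = 0.0540); the change from MPP4 to CLP was -1.28 (adjusted p = 9.19e-07).

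Isg20 stood at 23.6, 23.7 and 23.003 RPKM in HSC, 15.9, 6.12 and 9.23 RPKM in MPP4 and 5.67, 5.63 and 5.698 RPKM in CLP. Its HSC libraries lay close together, as did its CLP libraries, while MPP4 spread widely, and the change from HSC to MPP4 was -1.19 (SE 0.264, adjusted p = 0.00126), or -0.89 without the male libraries (adjusted p = 0.0556). Ifit1 stood at 11.4, 11.3 and 10.4, then 9.54, 4.92 and 4.55, then 3.64, 1.64 and 2.37 RPKM, a change of -1.80 from HSC to CLP (SE 0.2897, adjusted p = 2.98e-05). Rsad2, which encodes viperin, changed by -1.69 and its genomic neighbour Cmpk2, a nucleotide kinase, by -1.20 (adjusted p = 0.00149 and 2.48e-05). Without the male libraries Rsad2 gave -1.30 (adjusted p = 0.0517). Mx1 went the other way, from 2.15, 0.951 and 1.09 RPKM in HSC to 3.21, 2.29 and 4.06 RPKM in CLP (0.82, SE 0.245, adjusted p = 0.00866).

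Sensors and OAS enzymes were lower in CLP than in HSC for 7 of 11 genes and higher for 0, where 31.7% of all genes were lower and 19.4% higher. Ifih1 stood at 9.51, 9.05 and 10.1 RPKM in HSC, 3.97, 3.796 and 4.48 RPKM in MPP4 and 2.204, 1.99 and 2.61 RPKM in CLP, with no overlap at either step (-1.06 and -0.64, adjusted p = 1.45e-06 and 0.00155). Ddx58, the sensor RIG-I, stood at 20.3, 18.1 and 23.3, 18.6, 12.6 and 15.4 and 9.37, 5.03 and 8.53 RPKM. Its change passed the test at the later step (-0.96, adjusted p = 0.00139) and not at the first (-0.39, adjusted p = 0.107). With a replicate block in limma the first change of Ddx58 passed too (adjusted p = 0.00507 with the block fixed and 0.0399 with the mouse as a random effect). Oasl2, an OAS-like protein, stood at 47.4, 44.1 and 66.6, 43.1, 23.8 and 38.8 and 12.2, 9.06 and 14.6 RPKM, with changes of -0.59 and -1.46 (adjusted p = 0.0471 and 0.000129). The first of these was lost without wild-type HSC replicate 1 or 3 or MPP4 replicate 2 or 3, with changes of -0.65, -0.41, -0.34 and -0.68 (adjusted p = 0.0566, 0.221, 0.279 and 0.0507). Oas2, whose product makes the oligoadenylate that activates RNase L, was highest in MPP4, with 4.24, 5.84 and 4.11 RPKM in HSC, 9.29, 3.67 and 7.01 in MPP4 and 1.71, 2.74 and 2.86 in CLP. The 3 MPP4 values of Oas2 spread over more than the HSC values did. Its change from MPP4 to CLP was -1.10 (SE 0.2896, adjusted p = 0.0133), and this was -0.85, -1.03 and -0.94 without wild-type MPP4 replicate 1, MPP4 replicate 3 or CLP replicate 1 (adjusted p = 0.0976, 0.0520 and 0.0683).

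Of the 7 GTPases, 5 were lower and 1 was higher in CLP than in HSC, against the same 31.7% and 19.4% of all genes. Gbp2, which attacks pathogen vacuoles, stood at 34.6, 36.02 and 41.5 RPKM in wild-type HSC, 17.4, 14.3 and 16.03 RPKM in MPP4 and 3.95, 3.23 and 6.28 RPKM in CLP. Each step was without overlap (-1.18 and -1.66, adjusted p = 0.000479 and 5.00e-05). Iigp1, an immunity-related GTPase, stood at 25.4, 21.6 and 31.2, 11.2, 6.77 and 6.88 and 4.94, 3.04 and 3.44 RPKM, and its change passed the test at the first step (-1.56, SE 0.362, adjusted p = 0.00179) but not at the later one (-0.94, adjusted p = 0.103). With a replicate block the later change passed too (adjusted p = 0.00402 with the block fixed and 0.0329 with the mouse as a random effect). Whether the 2 steps of Iigp1 differ was not tested. Gbp3, a neighbour of Gbp2 on chromosome 3, moved the opposite way, with 18.8, 18.8 and 22.8 RPKM in HSC and 26.4, 24.4 and 28.5 RPKM in CLP (0.38, SE 0.149, adjusted p = 0.0381). That call was lost without any 1 of 4 libraries, wild-type HSC replicate 1 or 2 and CLP replicate 1 or 3, with changes of 0.34, 0.34, 0.38 and 0.33 (adjusted p = 0.109, 0.110, 0.0766 and 0.117).

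Of the 9 genes of ISG15 conjugation, ubiquitin ligation and ADP-ribosylation, 2 were lower and 1 was higher in CLP than in HSC, again beside 31.7% and 19.4% of all genes. Uba7 stood at 76.2, 82.7 and 101 RPKM in wild-type HSC, 37.5, 34.02 and 33.9 RPKM in MPP4 and 30.02, 34.1 and 32.7 RPKM in CLP. Uba7 changed by -1.27 at the first step (SE 0.103, adjusted p = 6.40e-09). Its MPP4 and CLP libraries overlapped, with a difference of -0.12 (adjusted p = 0.542). Isg15 itself stood at 15.8, 17.1 and 25.1, 18.8, 14.1 and 20.4 and 13.6, 9.59 and 14.4 RPKM (-0.58 from HSC to CLP, adjusted p = 0.0217), and without wild-type HSC replicate 3 or CLP replicate 2 its change was -0.38 or -0.41 (adjusted p = 0.143 and 0.128). Usp18, which removes ISG15 and damps the interferon receptor, gave 0.22 with an adjusted p of 0.412. Trim25, a ubiquitin ligase of the RIG-I pathway, was higher in CLP than in HSC (39.4 ± 5.35 against 23.3 ± 6.45 RPKM, SD, n = 3 each; log2 change 0.76, adjusted p = 0.000212). Sp100, a protein of nuclear bodies, was also higher in CLP (65.8 ± 9.18 against 46.2 ± 2.72 RPKM; 0.49, adjusted p = 0.00195).

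**Figure D3:**
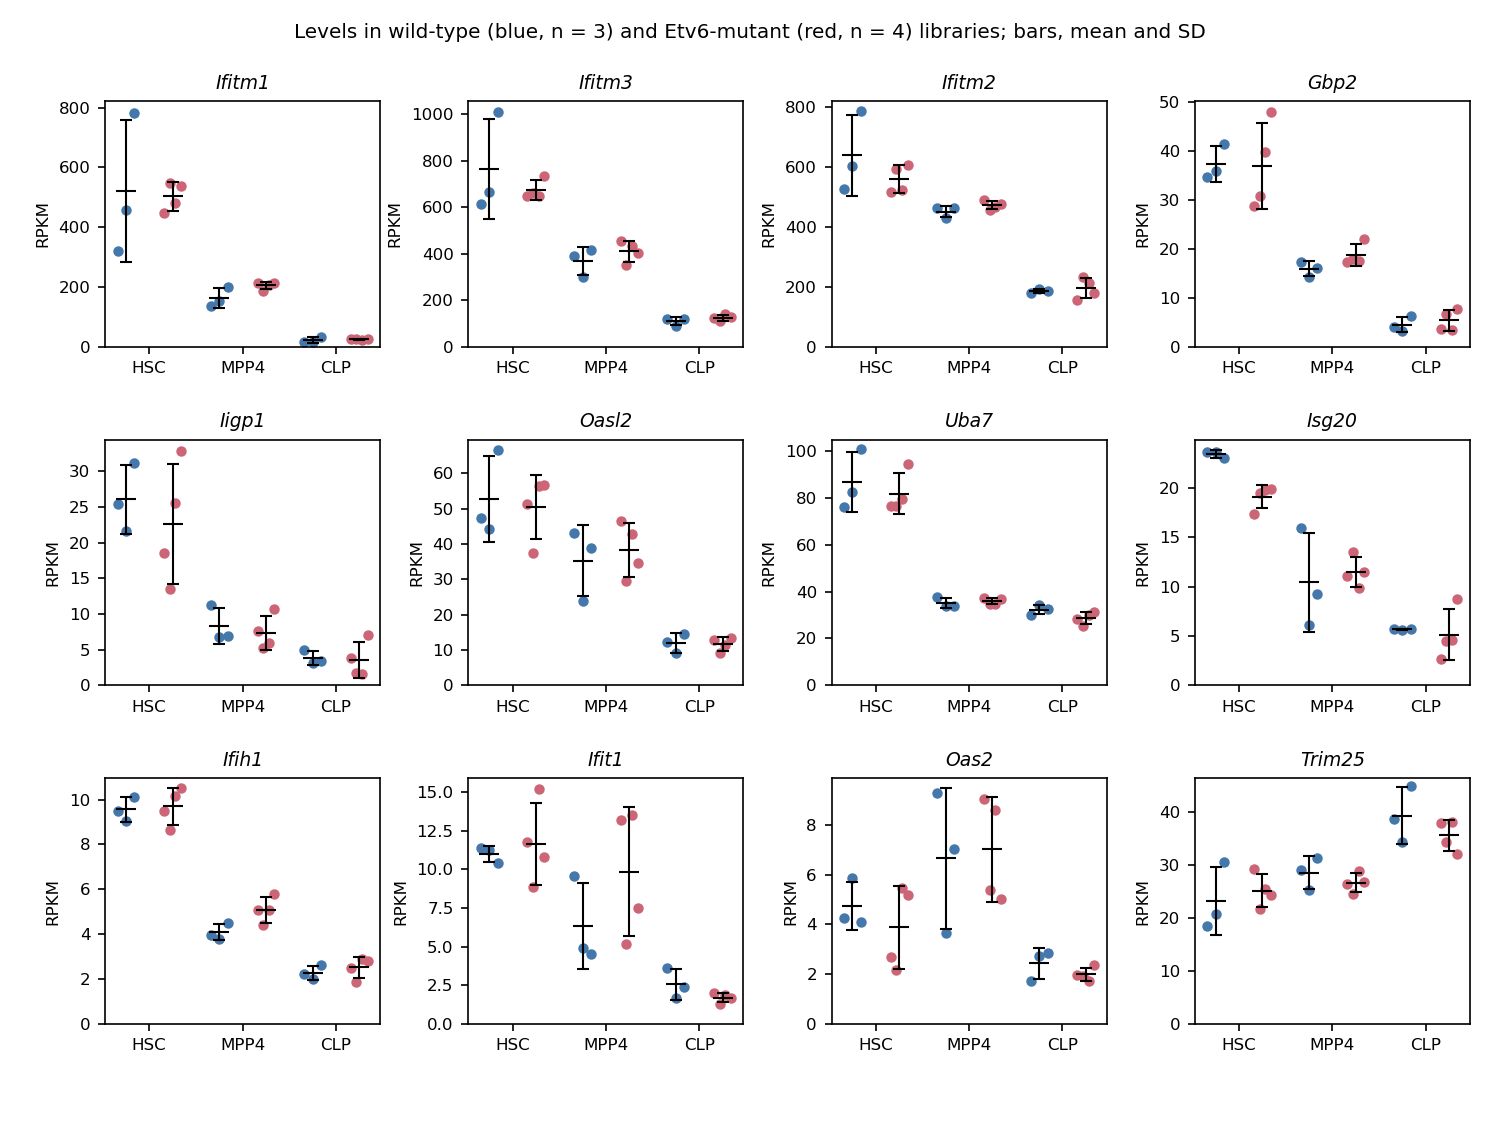
Levels in RPKM (linear axes from 0) of 12 members in each wild-type (blue, n = 3) and mutant (red, n = 4) library of HSC, MPP4 and CLP; horizontal lines are means and bars SD. In the first 10 panels the wild-type CLP points lie under the wild-type HSC points, Oas2 has its highest wild-type mean in MPP4, and Trim25 in CLP.

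The signalling genes above these members had no single direction. Of 10 receptors and kinases, 4 were higher and 3 lower in wild-type CLP than in HSC, where 19.4% of all genes were higher and 31.7% lower. Ifnar2, a chain of the type I interferon receptor, stood at 34.1, 34.4 and 40.5 RPKM in HSC and 95.6, 102 and 97.6 RPKM in CLP (log2 change 1.42, SE 0.0805, adjusted p = 1.22e-11), and Il10rb changed by 1.71. The kinase Jak2 changed by -1.24 (adjusted p = 2.68e-05). Of 15 genes of interferon production, 7 were higher and 2 lower, among them Irf8 (5.77) and Tlr7 (4.10), a sensor of single-stranded RNA. Of 68 other interferon-induced genes, 15 were higher and 34 lower, with Slfn2 (-3.51) and Plscr1 (-3.48) among the lower and Ifi27l2a (2.87) among the higher. Negative regulators held 2 higher and 0 lower of 11.

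Members varied together between libraries of the same group. After each group's mean was subtracted, the median correlation of a member with the mean of the other members was 0.612 over the 21 libraries, and 38 of 51 members exceeded 0.5. Other genes had a median correlation of 0.034 with the members' mean, and 7.0% exceeded 0.5. Oasl2 (0.960), Irf7 (0.919) and Oas3 (0.888) had the highest correlations, and Lgals9 (-0.098), Irf1 (0.029) and Ifitm2 (0.061) the lowest. The non-member genes most like the members' mean were Oas1g (0.893), Xkrx (0.861), Gbp10 (0.860), Gbp6 (0.858) and Trpc6 (0.855). These correlations are descriptions, and the 21 points share mice, depth and handling.

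The male library of each group had the lowest mean level of these genes. By the members' median, replicate 2 was lowest in 5 of the 6 groups, and in mutant CLP replicate 4 (3.86) lay under replicate 2 (4.01). In wild-type MPP4 it stood at 4.32 (mean log2 level), against 4.74 and 4.64 in replicates 1 and 3, and in mutant HSC at 4.53 against 4.73, 4.93 and 4.96. For 11 members (21.6%) replicate 2 was the lowest library in all 6 groups, against 0.896% of all genes. Replicate 1 was lowest in all 6 for 0 members and 0.626% of all genes, and replicate 3 for 0 members and 0.235%.

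**Figure D4:**
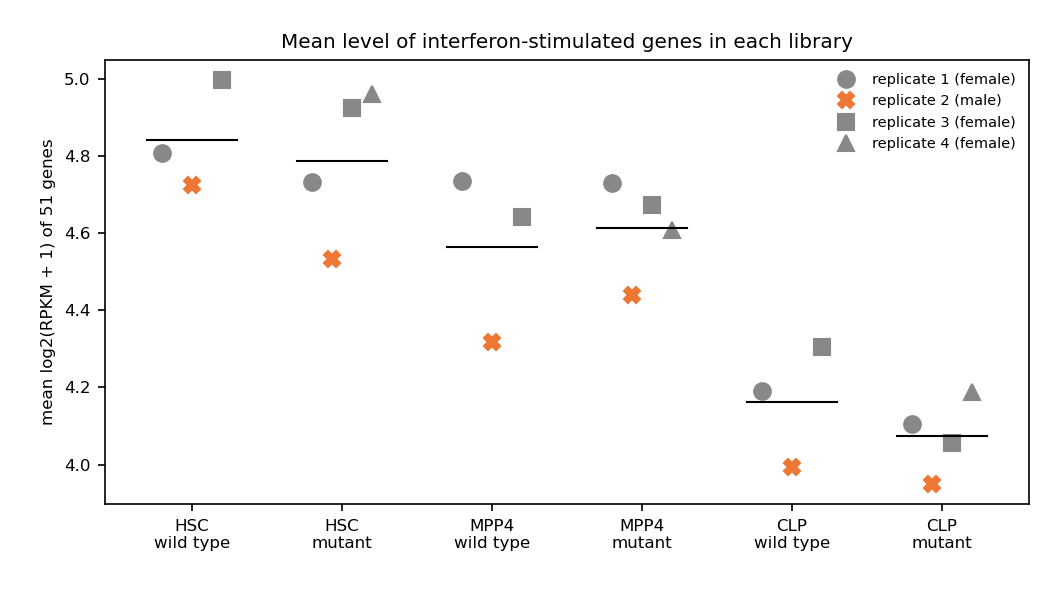
Mean log2(RPKM + 1) of the 51 genes in each library, by group (horizontal lines, group means; the axis does not start at 0). The orange crosses, replicate 2 from male mice, are lowest in each of the 6 groups, and the groups step down from HSC to CLP.

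A sex term added to the fit after these values were seen called 10 of 51 members lower and 0 higher in the 6 male than in the 15 female libraries (19.6% against 0.957% of all genes, 0.774% lower and 0.183% higher). The median difference was -0.21 and 49 of 51 members lay lower in the males (52.6% of all genes did). Since the term was chosen on the same values, its p-values describe the pattern and do not test it independently. Libraries of several populations that may share a mouse count as separate samples in it, so its p-values are then too small. Ddx58 stood at 21.9, 17.3, 23.98 and 23.6 RPKM in mutant HSC, 19.5, 14.7, 20.4 and 18.8 RPKM in mutant MPP4 and 7.899, 5.69, 7.899 and 7.72 RPKM in mutant CLP, in the order of the replicate numbers. The number 2 is the lowest each time, and the difference was -0.43 (SE 0.05895, limma adjusted p = 0.0009502). Irf7 gave -0.57 (SE 0.1004, adjusted p = 0.00545), with 25.7, 20.2 and 37.05 RPKM in wild-type HSC and 51.4, 24.3 and 37.5 RPKM in wild-type MPP4. Zbp1, a sensor that can trigger necroptosis, gave -0.68 (SE 0.139, adjusted p = 0.0195), with 7.78, 4.16, 9.72 and 10.2 RPKM in mutant HSC. The other 7 were Oasl2 (-0.51), Oasl1 (-0.57), Ifit2 (-0.46), Oas1a (-0.44), Oas3 (-0.41), Cmpk2 (-0.37) and Lgals3bp (-0.29), so 6 of the 10 were sensors or OAS enzymes.

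**Figure D5:**
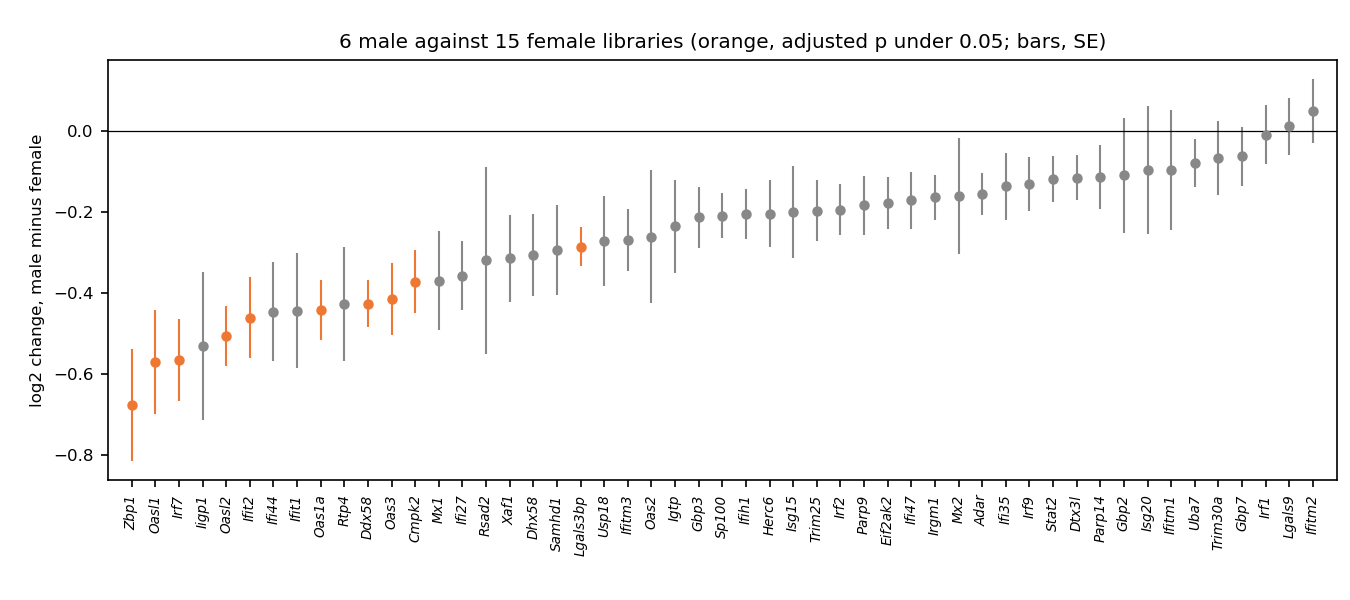
Difference between 6 male and 15 female libraries (points, log2(RPKM + 1) scale, from a fit with group and sex terms; bars, SE) of each of the 51 genes, ordered by size. Orange points have an adjusted p under 0.05, and 49 of 51 points lie below 0.

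How many members passed depended on the fit. The count of lower members was 6 with age as a further term (0.583% of all genes). With the mouse as a random effect it was 4 (0.339%), namely Ddx58, Oasl2, Oas1a and Lgals3bp. The count was 0 among wild-type libraries alone (0.123%) and 1, Ddx58, among mutant libraries alone (0.113%). It was 5 without replicate 2 of mutant HSC (0.548%), wild-type MPP4 (0.47%) or wild-type CLP (0.522%), and 7, 8 or 9 without replicate 2 of mutant CLP (0.539%), mutant MPP4 (0.626%) or wild-type HSC (0.653%). All 51 members lay lower in males among wild-type libraries alone (50.4% of all genes) and 46 of 51 among mutant libraries alone (51.7%). Sex, the number 2 and the individual mouse cannot be told apart, since each genotype had 1 male library per population. Markers of other cell types also differed between male and female libraries, and their part in the result was not tested. Neutrophil marker sums were high in 3 of the 6 male libraries, as given above. The male sums of wild-type HSC and mutant MPP4 exceeded every female library of their group. In mutant CLP the male sum (1769 RPKM) lay within the female range of 229.7 to 2271. The sums of the other 3 (206 RPKM in mutant HSC, 827 in wild-type MPP4 and 506 in wild-type CLP) also lay within the female range of their group. Summed levels of 8 erythroid markers in HSC were 5273 RPKM in the wild-type male library against 188 and 257 in the females, and 3763 in the mutant male against 73.0, 907 and 130.3. In MPP4 the male sum was 300.8 RPKM against 3291 and 1597 in wild type, and 5577 against 2299, 2824 and 3537 in mutant. In CLP the male sums, 1413 and 3379 RPKM, lay within the female ranges of 1140 to 1880 and 57.9 to 6101. Age, fitted beside sex, called 0 members (0.157% of all genes).

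Of the 104 further genes, 10 were lower in the male libraries too, against 0.774% of all genes. Gbp6 and Gbp10 are relatives of the listed GTPases and near-identical to each other, so reads may be shared between these 2. They were lower in males by 1.61 and 1.62 on the log2 scale, and Gbp4 and Gbp9 by 1.28 and 0.95 (limma adjusted p at most 0.00721). Gbp4 stood at 59.3, 10.3 and 47.2 RPKM in wild-type CLP and 14.5, 5.64, 13.5 and 10.8 RPKM in mutant CLP. It stood at 13.8, 1.14 and 11.05 RPKM in wild-type MPP4 and 1.43, 0.85000, 1.79 and 2.33 RPKM in mutant MPP4. The male wild-type library sat among the mutant values in both populations, while both female wild-type libraries stood above them all. Without all male libraries, a fit added after the values were seen, Gbp4 was lower in mutant MPP4 by a log2 difference of -2.24 (adjusted p = 0.00450) and in mutant CLP by -1.96 (adjusted p = 0.0149), and Gbp6 in mutant MPP4 by -1.60 (adjusted p = 0.0128). These fits compare 2 wild-type with 3 mutant libraries, and called 8 of 11480 genes in MPP4, 5 in CLP and 1 in HSC. In HSC, Gbp4 stood at 11.04, 6.996 and 11.01 RPKM in wild type and 6.08, 5.16, 8.84 and 14.1 RPKM in mutant, which overlap. With all libraries none of the 4 genes was called by genotype.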

How the data were processed

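RNA from 21 sorted bone marrow pools was made into libraries with SMART-seq v4 and NexteraXT kits, per the labels' protocols. RPKM values per gene were deposited by the authors; the submitters' processing notes name STAR and mm10. Versions and the counting tool were not given in the sources used here. These preparations do not mark the strand, so overlapping genes cannot be told apart, and RPKM leave the depth unknown. Symbols turned into dates were restored for 16 genes. Genes with at least 1 RPKM in 3 libraries were kept, and limma 3.58.1, under R 4.3.3, modelled log2(RPKM + 1) by 6 group means with variance moderated along the mean level. Tests were two-sided with Benjamini-Hochberg adjustment over 11496 genes at 0.05. The code was tested on simulated data. Pairing by replicate number was checked by the correlation, over genes, of deviations from the group mean. Every wild-type pair exceeded 0.1 between MPP4 and CLP (0.217 to 0.271) and between HSC and CLP (0.131 to 0.340), so these numbers were taken as paired. Between HSC and MPP4 they were not, since replicate 1 gave 0.094, while replicates 2 and 3 gave 0.146 and 0.330. If equal numbers mark the same mouse, all 3 steps are paired, so this split rests on the cutoff alone. Sex and age also follow the number: number 2 is the male in each group, and number 3 is 10 weeks old. Across genotypes equal numbers are different mice. There, number 2 gave 0.433, 0.214 and 0.453 in HSC, MPP4 and CLP. Number 1 gave 0.005, 0.018 and 0.036, and number 3 gave -0.155, 0.145 and 0.158. The check therefore cannot tell a shared mouse from shared sex or age. Group labels came from sample titles and genotypes. The p-values measure the spread between these libraries, which the labels do not tie to single mice.

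The genes and lists, and the tests on them, were chosen with earlier results of these data known. Members get values in every library when called by genotype, among the 5 smallest p per genotype comparison, the 5 highest means, or the 6 largest called changes per wild-type step; others named were chosen after their values were seen. Alternatives were the pseudocount, filter, scaling, library weights, sex and age terms, replicate blocks, the libraries fitted, and leaving out each library. Fits without the male libraries and the male against female fits were added after the data were seen.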

Additional observations from a re-analysis of the deposited data

Results flagged for a closer look

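In groups of 4 libraries, Dixon's test at the 95% level was run 156 times, of which chance flags about 1 in 20. It singled out 7 values, all in mutant groups because wild-type groups of 3 are not tested. Ddx58 stood at 5.69 RPKM in replicate 2 of mutant CLP, under 7.90, 7.90 and 7.72 RPKM in the others. Isg15 stood at 7.68 RPKM in replicate 3 of mutant CLP, under 13.1, 12.4 and 12.7 RPKM. Ifitm1 stood at 23.01 RPKM in the same library, under 25.7, 25.7 and 26.2 RPKM. Rsad2 stood at 11.3 RPKM in replicate 4 of mutant CLP, above 1.64, 2.06 and 1.91 RPKM, in a library whose neutrophil markers summed to 2271 RPKM; the part of these in the value was not tested. Ifitm3 stood at 736 RPKM in replicate 4 of mutant HSC, above 649, 661 and 649.5 RPKM. Isg20 stood at 17.4 RPKM in replicate 1 of mutant HSC, under 19.5, 19.8 and 19.9 RPKM. Gbp2 stood at 22.1 RPKM in replicate 4 of mutant MPP4, above 17.3, 17.9 and 17.6 RPKM.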

How the results depend on the processing

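The count of members called by genotype stayed at 0 in each population under the alternatives run, with 1 exception. In limma a fixed replicate block called 1 lower in MPP4, Gbp3 (log2 change -0.58, adjusted p = 0.0164), where it called 15 of 11496 genes lower. The smallest adjusted p of a member ran over the alternatives from 0.409 to 1.00 in HSC, from 0.0164 to 0.583 in MPP4 and from 0.785 to 1.00 in CLP. Replicate numbers did not pair the libraries across genotypes (correlations from -0.155 to 0.453, 5 of 9 over 0.1). Members higher in MPP4 than in HSC numbered 8 with library weights (15.7%, against 18.6% of all genes). They numbered 5 with a sex term or sex and age terms (9.8%, against 16.7% and 17.3%). With either replicate block they numbered 6 (11.8%, against 17.6% with the block fixed and 18.6% with the random effect). Each of these shares lies under that of all genes. Either block calls 21 lower at that step (41.2%, against 24.9% and 26.6% of all genes), whose numbers were not taken as paired. Ddx58 is among them (-0.39, limma adjusted p = 0.00507 with the block fixed). Leaving out 1 library gave 1 to 3 higher and 10 to 17 lower (1.96% to 5.88% and 19.6% to 33.3%). The shares of all genes were then 13.3% to 15.7% and 19.2% to 21.7%. Members higher in CLP than in MPP4 numbered 0 with a pseudocount of 0.1 or 0.5, no filter, quantile normalization or no male libraries. Of all genes 2.43% to 5.39% were higher in those fits. The members numbered 3 with median-ratio scaling or library weights (5.88%, against 5.93% and 5.6%). With sex, sex and age or either replicate block they numbered 2 (3.92%, against 5.2% to 6.31%). Without 1 library they numbered 0 to 1 (at most 1.96%, against 3.51% to 4.61%). Members higher in CLP than in HSC numbered 3 to 5 without 1 library (5.88% to 9.8%, against 17.3% to 18.7% of all genes). With either block 7 were higher (13.7%, against 20.6% and 21.4%) and 28 or 27 lower (54.9% and 52.9%, against 33.2% and 34.6%). Calls changed by a block in the paired wild-type steps are those named above; with the mouse as a random effect Ifi47 did not pass. Members lower in males numbered 6, 4, 0 and 1 with age, with the mouse as a random effect, in wild-type libraries and in mutant libraries, and 5 to 9 without 1 male library. Of all genes 0.583%, 0.339%, 0.123%, 0.113% and 0.47% to 0.653% were lower in these fits. Ifitm2 in HSC turned from a negative difference to 0.0033 under quantile normalization. The causes were not tested. All genes called by genotype in MPP4 numbered 25, and 0 and 14 with a pseudocount of 0.1 and 0.5, 184 with library weights, 42 and 48 with sex and sex and age, 3 with MPP4 alone and 8 without the male libraries. In HSC they numbered 6, with 12 under quantile normalization, 21 with library weights, 0 with HSC alone and 1 without the male libraries; in CLP 0, with 5 without the male libraries. With RPKM alone, precision at low levels cannot be judged from depth.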
